A study of Mus musculus with 21 samples.

Results

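The 10 chemokine genes described here, spelled in capitals in the count tables as CCL2, CCL5, CCL7, CCL20, CXCL1, CXCL5, CXCL10, CXCL12, CXCL16 and CX3CL1, are written below with the usual mouse symbols. They were taken by symbol, with no threshold on a measured value but with earlier results of these data known, and all 10 were found among the 24447 genes listed in each of the 3 count tables of mouse fibroblasts. Chemokines are small secreted proteins that direct the migration of leukocytes through receptors of the G protein-coupled type. They are grouped by the spacing of their first cysteines into the CC, CXC and CX3C families. Fibroblasts are a known source of chemokines in wounds and tumours, and many chemokine genes are switched on by the transcription factor NF-kappaB or by interferons. Among the members, Cxcl1 and Cxcl5 attract neutrophils through Cxcr2, Cxcl10 attracts activated T cells through Cxcr3, and Cxcl12 retains and guides Cxcr4-bearing cells. Ccl2 and Ccl7 recruit monocytes through Ccr2, Ccl5 attracts T cells and monocytes, and Ccl20 acts through Ccr6. Cxcl16 and Cx3cl1 are made as transmembrane proteins and are released by proteases of the ADAM family.

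The study asked which genes depend on Prrx1, a paired-related homeobox transcription factor of mesenchymal cells, in fibroblasts of different origin. RNA-seq was carried out on 21 cultures in 7 groups of 3. Mouse embryonic fibroblasts (MEF) came from embryos of embryonic day 10 to 13 and were wild type (WT), Prrx1 mutant (genotype KI_PRRX1, from the stock 129S-Prrx1tm1Jfm/Mmmh, although the strain is given as C57BL/6) or treated with CRISPR/Cas9 and a guide RNA against Prrx1 (sgPrrx1), which by the study's methods targets the first exon unless otherwise described. Wound-healing fibroblasts, from C57BL/6 dorsal wounds at day 10, and cancer-associated fibroblasts of MMTV-PyMT mammary tumours (MMTV-CAF, FVB/NJ) were WT or sgPrrx1. The control named for the sgPrrx1 cells was sgNS, called WT. The same WT MEF cultures were also set against the mutant. Either the mutant or the sgPrrx1 MEF may therefore differ from them in treatment with Cas9 and a guide as well. All groups, controls included, were immortalized with HPV E6/E (as spelled in the sample notes) and grown in DMEM with 10% FBS. Each origin had a count table of its own, and MMTV-CAF also differed from the other 2 origins in strain, so that a difference between origins cannot be told apart from table, nor for MMTV-CAF from strain, and the ages of the wounded and tumour-bearing mice are not given in the sources used here. No source says that the 3 cultures of a group came from separate animals or separately edited lines, so p-values measure only the spread between these cultures, which may be technical.

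Total counts ranged from 69588655 to 134790440 per culture. Levels are given as CPM, which are counts scaled to a common library size, after scaling all 21 cultures by TMM, and changes come from edgeR's quasi-likelihood test within each origin, with p-values adjusted over all genes tested and called at 0.05. Prrx1 itself averaged 181 CPM in WT MEF, 22.2 CPM in Prrx1 mutant MEF and 120 CPM in sgPrrx1 MEF. It fell from 147 to 64.9 CPM in wound-healing fibroblasts and from 632 to 306 CPM in MMTV-CAF. The fall was 8.25-fold in the mutant MEF and 1.52-fold in sgPrrx1 MEF (edgeR adjusted p = 6.83e-06 and 0.0145). A transcript level does not measure editing or protein, so these values check the labels in direction only. The fibroblast markers stood between 6909 and 42567 CPM in sum, although Lum and Fap, fibroblast markers in many tissues, averaged at most 1.27 and 1.51 CPM in any group. Of 15 leukocyte markers, between 2 and 4 reached 1 CPM in any group, and their sum stayed between 14.7 and 28.8 CPM.

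The upstream sequence of 5 members was held by the RefSeq promoter table (GRCm38.p6), and 4 of them are printed because they cover members with large rises and one that fell in 3 of the 4 comparisons with WT. The windows hold the 250 bases before the annotated start, 5′ to 3′ on the gene's strand, and capitals mark the motif matches. Cxcl1 lies at chr5:90890995-90891244 (plus strand), Cxcl10 at chr5:92348890-92349139 (minus), Ccl20 at chr1:83116516-83116765 (plus) and Cxcl12 at chr6:117168285-117168534 (plus).
Cxcl1: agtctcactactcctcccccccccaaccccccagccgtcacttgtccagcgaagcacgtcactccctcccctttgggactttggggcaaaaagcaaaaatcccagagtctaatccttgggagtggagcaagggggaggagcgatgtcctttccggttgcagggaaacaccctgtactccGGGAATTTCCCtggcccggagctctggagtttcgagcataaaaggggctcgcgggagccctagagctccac
Cxcl10: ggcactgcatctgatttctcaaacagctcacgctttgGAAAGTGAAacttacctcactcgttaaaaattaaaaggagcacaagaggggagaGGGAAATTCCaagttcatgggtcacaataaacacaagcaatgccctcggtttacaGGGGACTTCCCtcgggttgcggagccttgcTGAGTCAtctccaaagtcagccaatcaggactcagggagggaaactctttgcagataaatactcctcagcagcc
Ccl20: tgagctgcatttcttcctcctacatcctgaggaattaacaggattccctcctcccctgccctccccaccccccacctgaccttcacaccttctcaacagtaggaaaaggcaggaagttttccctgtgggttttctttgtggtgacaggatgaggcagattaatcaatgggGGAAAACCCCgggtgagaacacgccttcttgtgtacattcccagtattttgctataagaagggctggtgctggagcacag
Cxcl12: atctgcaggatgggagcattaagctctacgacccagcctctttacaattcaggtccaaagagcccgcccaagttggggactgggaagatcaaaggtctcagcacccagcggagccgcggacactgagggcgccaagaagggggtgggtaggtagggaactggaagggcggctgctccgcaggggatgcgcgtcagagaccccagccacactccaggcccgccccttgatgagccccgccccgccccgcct

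Both strands were searched for the consensus NF-kappaB site, the AP-1 site TGANTCA, the core of an interferon-stimulated response element GAAANNGAA and the homeodomain core TAATTA. The motifs were chosen after these windows had been seen. The Cxcl1 window held overlapping NF-kappaB matches between 71 and 61 bases upstream, and the Ccl20 window held one between 80 and 71 bases upstream. The Cxcl10 window held NF-kappaB matches from 159 to 150 and, overlapping each other, from 104 to 94 bases upstream, an AP-1 match from 74 to 68 and a GAAANNGAA match from 213 to 205. The windows of Cxcl12 and of Cx3cl1 held no match to any of the 4 motifs. Of all 32851 windows in the table, 7.25% held the NF-kappaB consensus, 6.75% TGANTCA, 7.13% GAAANNGAA and 4.84% TAATTA. A match describes letters, not binding.

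Treatment with sgPrrx1 was accompanied by higher levels of most chemokines in wound-healing fibroblasts and MMTV-CAF and by lower levels of most in MEF. In MMTV-CAF, 8 of the 9 tested members rose and 1 fell, where 41.2% of all tested genes rose and 41.9% fell. In wound-healing fibroblasts, 7 of 10 rose and 3 fell, where 38.3% of all genes rose and 39.3% fell. In sgPrrx1 MEF, 7 of 8 fell and 0 rose (0 also at an unadjusted p under 0.05 and by DESeq2), where 22.8% of all genes fell and 20.3% rose. With a 2-fold limit, which left all these members called but Ccl5, 1200 of 13372 genes fell there and 211 rose. Large changes of all genes thus also ran mostly downward in sgPrrx1 MEF. In Prrx1 mutant MEF, 4 of 9 fell and 3 rose, where 30.5% of all genes fell and 29.4% rose, so that the members' shares lay nearer to those of all genes. The members not tested had counts too low for the filter. The median log2 fold change of the tested members was 1.61 in MMTV-CAF, 0.85 in wound-healing fibroblasts, -1.38 in sgPrrx1 MEF and -0.49 in Prrx1 mutant MEF, where the median over all genes was within 0.01 of 0 in each. Both MEF comparisons used the same 3 WT cultures and are not independent of each other.

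**Figure D1:**
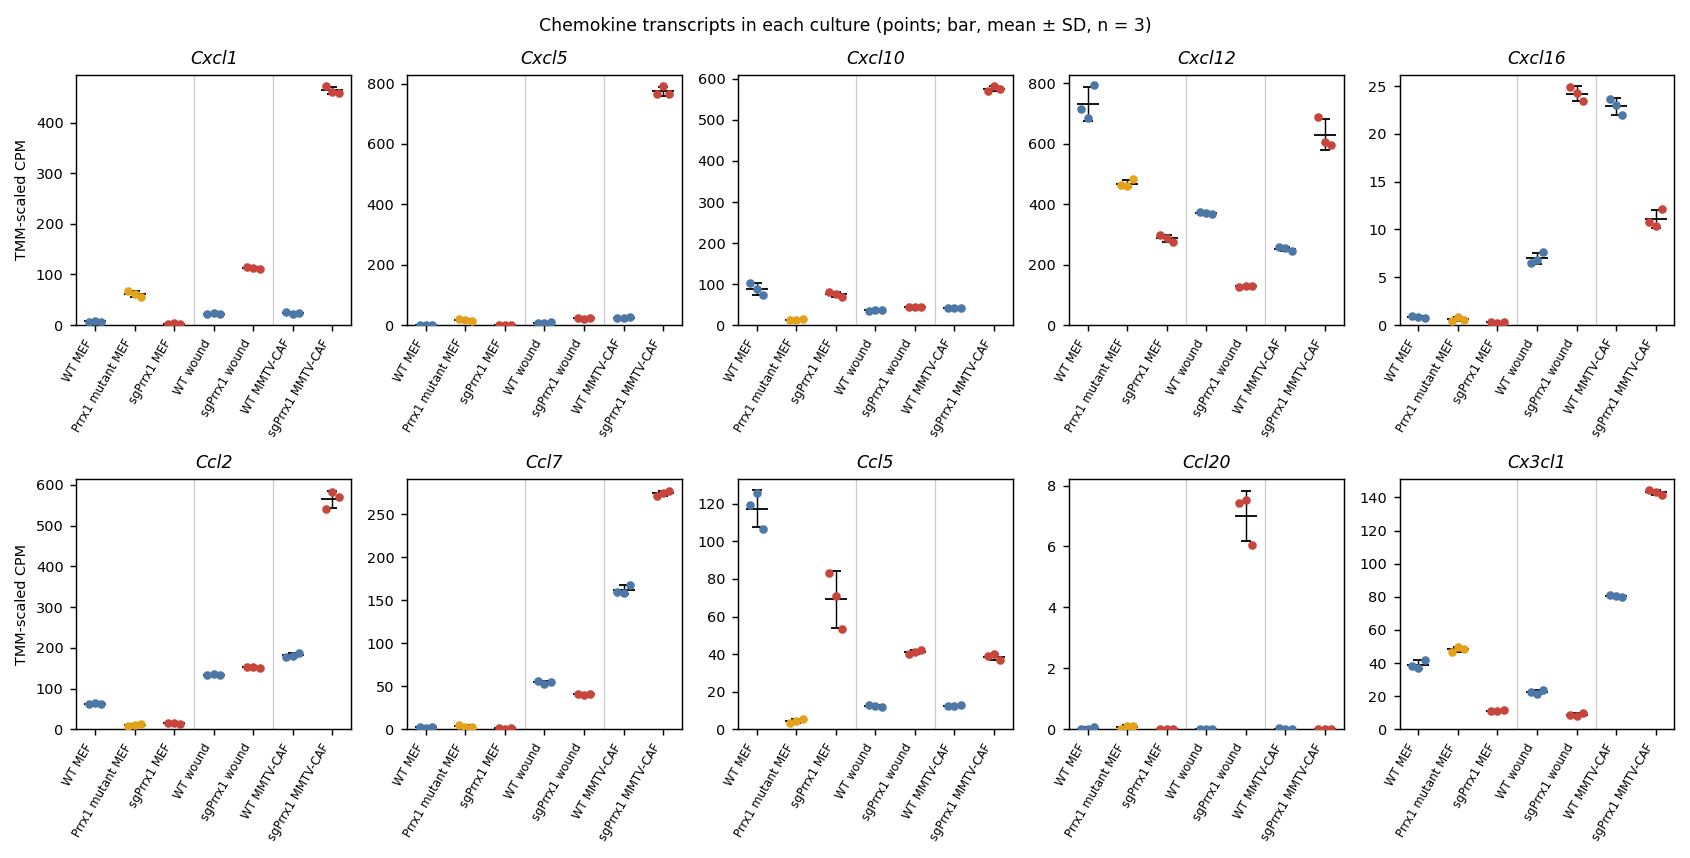
TMM-scaled CPM (linear axis from 0, a separate scale for each gene) of the 10 chemokines in each of 21 cultures, by group; points are cultures, the bar and whiskers are the mean ± SD of 3. Cxcl1, Cxcl5, Cxcl10, Ccl2, Ccl7 and Cx3cl1 were highest in sgPrrx1 MMTV-CAF, and Ccl20 stood above 6 CPM in sgPrrx1 wound-healing fibroblasts and under 0.2 CPM in every other culture.

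Cxcl1 (chr5:90891245-90893121) and Cxcl5 (chr5:90759298-90761625), the neutrophil attractants, had the largest fold rises of the members in MMTV-CAF. In MMTV-CAF, Cxcl1 was at 24.99, 21.5 and 23.6 CPM in the WT cultures and at 471, 461 and 459 CPM in the sgPrrx1 cultures. Cxcl5 was at 24.0, 24.7 and 25.8 CPM in WT and at 766, 790 and 767 CPM in sgPrrx1. The groups were far apart for both genes, with no overlap. Cxcl1 rose 19.6-fold (log2 fold change 4.29, SE 0.054, edgeR adjusted p = 2.48e-10) and Cxcl5 30.7-fold (4.94, SE 0.032, edgeR adjusted p = 2.00e-11).

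The same genes rose by less in wound-healing fibroblasts. Cxcl1 was at 21.96, 23.6 and 22.7 CPM in WT and at 115, 113 and 110 CPM in sgPrrx1, a 4.93-fold rise (log2 fold change 2.30, SE 0.033, edgeR adjusted p = 1.85e-10). Cxcl5 was at 7.97, 8.34 and 8.62 CPM in WT and at 23.3, 20.7 and 22.1 CPM in sgPrrx1, a 2.65-fold rise (1.40, SE 0.054, edgeR adjusted p = 4.23e-08). Neither gene overlapped between the groups. WT MMTV-CAF and WT wound-healing fibroblasts overlapped in their Cxcl1 level, at means of 23.4 and 22.7 CPM.

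In MEF, Cxcl1 changed in opposite directions in the Prrx1 mutant and with sgPrrx1. It was at 6.89, 8.11 and 6.90 CPM in WT, at 66.9, 60.4 and 55.1 CPM in Prrx1 mutant MEF and at 2.20, 3.29 and 2.88 CPM in sgPrrx1 MEF. All mutant cultures lay above and all sgPrrx1 cultures below the WT range. The mutant was 8.21-fold higher than WT (log2 fold change 3.04, SE 0.13, edgeR adjusted p = 4.66e-06), sgPrrx1 MEF 2.64-fold lower (-1.40, SE 0.17, edgeR adjusted p = 0.000939), and the mutant 21.7-fold above sgPrrx1 MEF in their direct comparison (edgeR adjusted p = 5.69e-06). Cxcl5 was nearly undetected in WT MEF, with 6 counts, all in the third culture, and had no count in sgPrrx1 MEF, where it was not tested against WT. The mutant cultures were at 19.0, 16.8 and 12.8 CPM, 614-fold above WT with a 95% counting interval from 282 to 1675 (edgeR adjusted p = 1.94e-05), and at least 365-fold above sgPrrx1 MEF when a floor of 3 counts per library is used. That interval covers counting error only, takes each count as independent and would be wider if read pairs were counted as 2. The fitted log2 fold change ranged from 8.65 to 13.21 when single cultures were left out. It was highest without the third WT culture, where no WT count was left.

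Cxcl10 (chr5:92346638-92348889), the interferon-inducible attractant of T cells, followed neither pattern. In MMTV-CAF it was at 40.5, 42.2 and 42.0 CPM in WT and at 570, 582 and 576 CPM in sgPrrx1, a 13.7-fold rise without overlap (log2 fold change 3.77, SE 0.023, edgeR adjusted p = 1.42e-11). In wound-healing fibroblasts it was at 35.1, 36.7 and 36.8 CPM in WT and at 44.8, 44.1 and 44.5 CPM in sgPrrx1, a 1.22-fold rise (0.29, SE 0.028, edgeR adjusted p = 1.44e-05). The wound groups were apart but close. In MEF it was at 103, 87.4 and 73.6 CPM in WT, at 12.4, 12.9 and 15.2 CPM in the mutant and at 79.9, 75.4 and 69.2 CPM in sgPrrx1. The mutant lay below the WT range, 6.65-fold lower (-2.73, SE 0.15, edgeR adjusted p = 1.30e-05). The sgPrrx1 MEF overlapped with WT (-0.25, SE 0.13, edgeR adjusted p = 0.158), and this difference was past the threshold without the third WT culture (-0.36, edgeR adjusted p = 0.0290).

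Cxcl12 (chr6:117168535-117181368), the ligand of Cxcr4 and of the scavenging receptor Ackr3, was the member that was lower in 3 of the 4 comparisons with WT. In MEF it was at 716, 684 and 795 CPM in WT, at 461, 460 and 482 CPM in the mutant and at 296, 289 and 275 CPM in sgPrrx1. The 3 groups did not overlap. The fall was 1.59-fold in the mutant (log2 fold change -0.67, SE 0.082, edgeR adjusted p = 0.000494) and 2.58-fold in sgPrrx1 MEF (-1.37, SE 0.077, edgeR adjusted p = 3.72e-05), although Prrx1 fell less there. In wound-healing fibroblasts it went from 373, 372 and 367 CPM in WT to 127, 130 and 128 CPM in sgPrrx1, 2.90-fold lower (-1.53, SE 0.019, edgeR adjusted p = 1.06e-10). In MMTV-CAF the change was in the other direction, from 257, 254 and 245 CPM in WT to 687, 604 and 595 CPM in sgPrrx1, a 2.46-fold rise (1.30, SE 0.056, edgeR adjusted p = 1.58e-07). Its levels in WT MEF and in sgPrrx1 MMTV-CAF overlapped.

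Ccl2 (chr11:82035577-82037452) and Ccl7 (chr11:82045712-82047525), the monocyte attractants, lie beside each other. In MMTV-CAF, Ccl2 was at 177, 181 and 188 CPM in WT and at 540, 582 and 571 CPM in sgPrrx1, a 3.07-fold rise (log2 fold change 1.62, SE 0.031, edgeR adjusted p = 1.97e-09). In wound-healing fibroblasts it was at 133, 136 and 134 CPM in WT and at 153, 153 and 150 CPM in sgPrrx1, a 1.13-fold rise (0.17, SE 0.020, edgeR adjusted p = 5.24e-05). The groups were apart in both, widely in MMTV-CAF and narrowly in wound-healing fibroblasts. In MEF it was at 62.5, 63.7 and 62.7 CPM in WT, at 8.99, 9.89 and 12.7 CPM in the mutant and at 16.4, 16.1 and 13.99 CPM in sgPrrx1, which is 6.08-fold and 4.10-fold lower (-2.60, SE 0.13, and -2.04, SE 0.082, with edgeR adjusted p = 9.65e-06 and 1.07e-05). Neither reached the WT range.

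Ccl7 did not follow Ccl2 throughout. It ranged from 158 to 168 CPM in WT and from 271 to 277 CPM in sgPrrx1 MMTV-CAF, a 1.67-fold rise (log2 fold change 0.74, SE 0.024, edgeR adjusted p = 3.30e-08). It ranged from 52.7 to 56.0 CPM in WT and from 40.4 to 41.2 CPM in sgPrrx1 wound-healing fibroblasts, a 1.35-fold fall (-0.43, SE 0.030, edgeR adjusted p = 1.64e-06), where Ccl2 rose. MEF held little of it. The means were 2.34 CPM in WT, 3.37 CPM in the mutant, which overlapped with WT (0.51, SE 0.32, edgeR adjusted p = 0.207), and 1.15 CPM in sgPrrx1 MEF (-1.03, SE 0.20, edgeR adjusted p = 0.00655).

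Ccl5 (chr11:83525778-83530518), an interferon- and NF-kappaB-responsive attractant of T cells and monocytes, fell in MEF and rose in wound-healing fibroblasts and MMTV-CAF. In MEF it was at 119, 126 and 106 CPM in WT, at 3.22, 4.56 and 5.46 CPM in the mutant and at 83.3, 70.7 and 53.2 CPM in sgPrrx1. The mutant was far below and the sgPrrx1 cultures nearer below the WT range. The fall was 27.1-fold in the mutant (log2 fold change -4.76, SE 0.20, edgeR adjusted p = 4.67e-06) and 1.71-fold in sgPrrx1 MEF (-0.78, SE 0.16, edgeR adjusted p = 0.00838). Wound-healing fibroblasts went from 12.8, 12.6 and 11.7 CPM to 40.0, 40.9 and 42.2 CPM, and MMTV-CAF from 12.6, 12.2 and 12.7 CPM to 38.8, 40.2 and 37.1 CPM. The rises were 3.30-fold and 3.06-fold (1.72, SE 0.042, and 1.61, SE 0.038, with edgeR adjusted p = 3.18e-09 and 5.51e-09). The WT levels of these 2 origins overlapped, and so did the sgPrrx1 levels.

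Ccl20 (chr1:83116766-83119167), which attracts Ccr6-bearing lymphocytes and dendritic cells, was seen almost only in sgPrrx1 wound-healing fibroblasts. The WT wound cultures had no count, and the sgPrrx1 cultures were at 7.43, 7.53 and 6.06 CPM, at least 189-fold higher when a floor of 3 counts per library is used (edgeR adjusted p = 1.94e-07). Every other culture stood at 0.118 CPM or lower, and the gene was not tested in the remaining comparisons with WT.

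Cxcl16 (chr11:70454389-70459984) and Cx3cl1 (chr8:94772180-94782427), the membrane-bound members, moved in opposite directions to each other in both MMTV-CAF and wound-healing fibroblasts. Cxcl16 ranged from 6.502 to 7.64 CPM in WT and from 23.4 to 24.9 CPM in sgPrrx1 wound-healing fibroblasts, a 3.46-fold rise (log2 fold change 1.79, SE 0.059, edgeR adjusted p = 1.76e-08). It was the member that fell in MMTV-CAF, from between 21.9 and 23.7 CPM in WT to between 10.3 and 12.1 CPM in sgPrrx1, 2.09-fold lower (-1.07, SE 0.063, edgeR adjusted p = 1.04e-06). All MEF cultures held under 1 CPM of Cxcl16. Its mean was 0.831 CPM in WT, 0.600 CPM in the mutant (-0.49, SE 0.32, edgeR adjusted p = 0.226) and 0.290 CPM in sgPrrx1 MEF (-1.52, SE 0.27, edgeR adjusted p = 0.00481).

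Cx3cl1 ranged from 79.9 to 81.1 CPM in WT and from 142 to 144 CPM in sgPrrx1 MMTV-CAF, a 1.75-fold rise (log2 fold change 0.81, SE 0.019, edgeR adjusted p = 5.42e-09). It ranged from 21.1 to 23.9 CPM in WT and from 8.25 to 9.59 CPM in sgPrrx1 wound-healing fibroblasts, 2.53-fold lower (-1.34, SE 0.065, edgeR adjusted p = 1.74e-07). In MEF it ranged from 36.9 to 41.9 CPM in WT, from 46.7 to 49.9 CPM in the mutant and from 11.02 to 11.9 CPM in sgPrrx1. The 3 MEF groups did not overlap. sgPrrx1 MEF were 3.46-fold lower than WT (-1.79, SE 0.081, edgeR adjusted p = 1.74e-05). The mutant was 1.22-fold higher (0.29, SE 0.079, edgeR adjusted p = 0.0170), a call that was lost without mutant culture 2 or without WT culture 1 or 2 (edgeR adjusted p = 0.0783, 0.0552 and 0.0809).

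**Figure D2:**
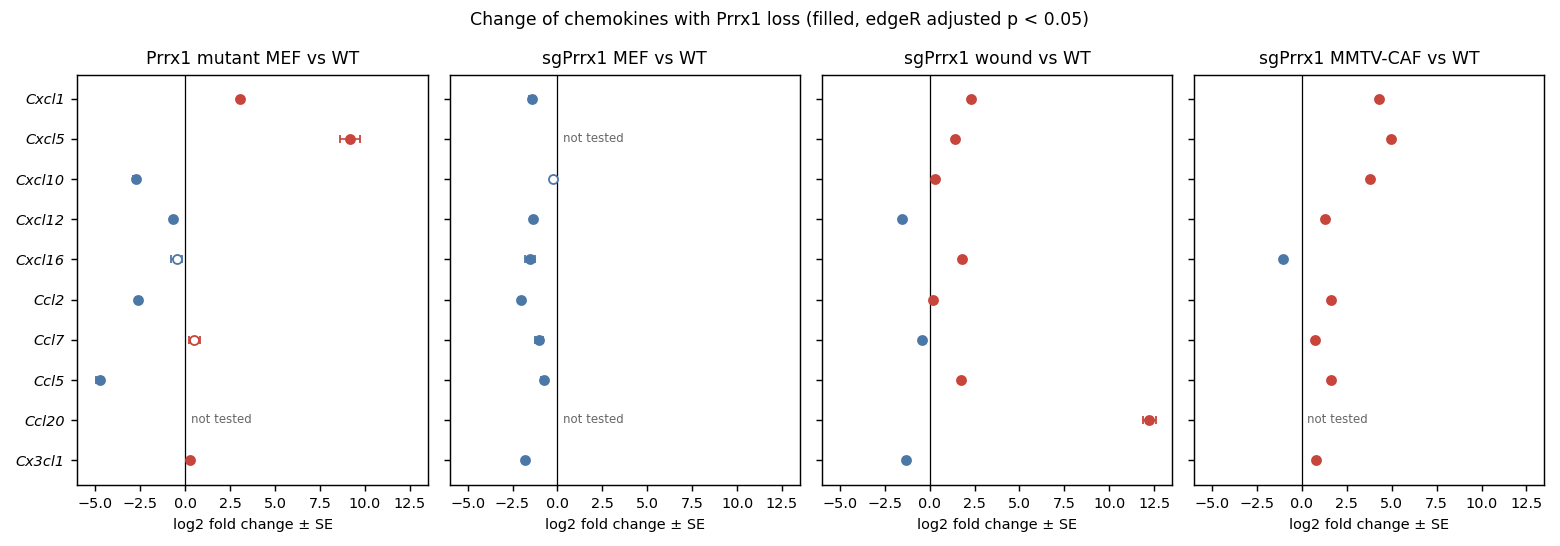
Log2 fold change (x axis, ± SE) of each chemokine in the 4 Prrx1-loss groups against WT of the same origin; red points are above 0, blue below, and open points did not pass an edgeR adjusted p of 0.05. Points lie left of 0 throughout sgPrrx1 MEF and, except for Cxcl16, right of 0 in sgPrrx1 MMTV-CAF; the points of Ccl20 in wound-healing fibroblasts and Cxcl5 in mutant MEF rest on WT cultures with few or no counts.

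When the 2 MEF models were set against each other, 6 of the 9 tested members were lower in sgPrrx1 MEF than in Prrx1 mutant MEF, namely Ccl7, Cxcl1, Cxcl5, Cxcl12, Cxcl16 and Cx3cl1, and 3 were higher, namely Ccl2, Ccl5 and Cxcl10. Of all tested genes, 28.4% were lower and 27.8% higher. Ccl5 was 15.8-fold and Cxcl10 5.58-fold above the mutant (edgeR adjusted p = 3.64e-05 and 7.01e-06), while Cx3cl1 was 4.24-fold below (edgeR adjusted p = 3.00e-06). The smaller differences of Ccl2 (log2 fold change 0.57, SE 0.14, edgeR adjusted p = 0.0144) and Cxcl16 (-1.04, SE 0.34, edgeR adjusted p = 0.0388) were not past the threshold when some single cultures were left out. For Ccl2 these were mutant culture 2 and sgPrrx1 culture 2 (edgeR adjusted p = 0.0603 and 0.0512). For Cxcl16 they were mutant culture 2 and any of the 3 sgPrrx1 cultures (edgeR adjusted p from 0.0746 to 0.133). The mutant cells came from mutant mice and the sgPrrx1 cells from CRISPR/Cas9 with a guide, and Prrx1 transcript differed 5.43-fold between them, so these differences of the models cannot be told apart.

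The sgPrrx1 change was compared between MEF, wound-healing fibroblasts and MMTV-CAF with an interaction term over 18 cultures. All 10 members differed, but so did 80.1% of all genes tested, so the count says little about chemokines. The sizes were uneven. Between MMTV-CAF and MEF, the log2 fold change differed by 5.71 for Cxcl1 (SE 0.14), 4.04 for Cxcl10 (SE 0.13), 3.67 for Ccl2 (SE 0.076) and 2.68 for Cxcl12 (SE 0.083), with edgeR adjusted p of 2.24e-14, 3.38e-13, 2.09e-15 and 2.49e-13. Between MMTV-CAF and wound-healing fibroblasts it differed by 3.59 for Cxcl5 (SE 0.18), 3.53 for Cxcl10 (SE 0.13) and 2.88 for Cxcl12 (SE 0.083), all greater in MMTV-CAF, and by -2.80 for Cxcl16 (SE 0.13). For Ccl5 these 2 origins differed by -0.06 (SE 0.16, edgeR adjusted p = 0.792). The Cxcl12 change in wound-healing fibroblasts and in MEF differed by -0.20 (SE 0.082, edgeR adjusted p = 0.0419). The Ccl20 term rests on cultures without counts and its size has no meaning.

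The make-up of the chemokine transcripts was compared after division by exon length, in CPM per kb, with exon lengths from Gencode M1, which may not be the annotation used for counting. Cxcl12 was divided by 8176 bases and every other member by between 801 and 3708 bases. Relative to the others, Cxcl12 therefore counts for less here than in CPM. The summed level of the 10 members was 502 ± 11.03 in WT MMTV-CAF and 2331 ± 21.99 in sgPrrx1 MMTV-CAF (SD, n = 3). It was 306 ± 0.818 in WT and 419 ± 3.32 in sgPrrx1 wound-healing fibroblasts. In MEF it was 346 ± 11.4 in WT, 171 ± 4.87 in the mutant and 177 ± 21.1 in sgPrrx1. The sums of WT and Prrx1-loss cultures did not overlap in any origin, and those of the 2 Prrx1-loss MEF groups did. In wound-healing fibroblasts the direction depends on the division by length, as Cxcl12 fell there from 371 to 128 CPM. The overlap of the 2 Prrx1-loss MEF groups depends on it too, as Cxcl12 averaged 468 CPM in the mutant and 287 CPM in sgPrrx1 MEF.

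Different members made up these length-scaled sums, and the order depends on the exon lengths. Without division by length, Cxcl12 was the highest member in every WT group. It averaged 732 CPM in WT MEF, 371 CPM in WT wound-healing fibroblasts and 252 CPM in WT MMTV-CAF. In WT MEF, Ccl5 gave 35.2 ± 2.14% and Cxcl12 25.9 ± 2.82% of the sum (SD, n = 3). In the mutant, Cxcl1 gave 37.3 ± 2.63% and Cxcl12 33.5 ± 1.65%, and their shares overlapped. In sgPrrx1 MEF, Ccl5 gave 40.2 ± 4.2% and Cxcl10 27.9 ± 1.37%. After division by length, the 2 models had overlapping sums, with a different gene highest on average. In CPM, Cxcl12 was the highest member in both, at 468 CPM in the mutant and 287 CPM in sgPrrx1 MEF. Ccl2 led in WT wound-healing fibroblasts with 38.6 ± 0.475% and in sgPrrx1 with 31.9 ± 0.189%, where Cxcl1 came next with 28.2 ± 0.349%. Ccl7 and Ccl2 led in WT MMTV-CAF, with 40.3 ± 0.445% and 31.8 ± 0.451%. In sgPrrx1 MMTV-CAF the sum was spread over Ccl2 with 21.3 ± 0.642%, Cxcl1 with 20.9 ± 0.456%, Cxcl5 with 20.1 ± 0.185% and Cxcl10 with 16.3 ± 0.0378%. Ccl2 and Cxcl1 overlapped there.

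**Figure D3:**
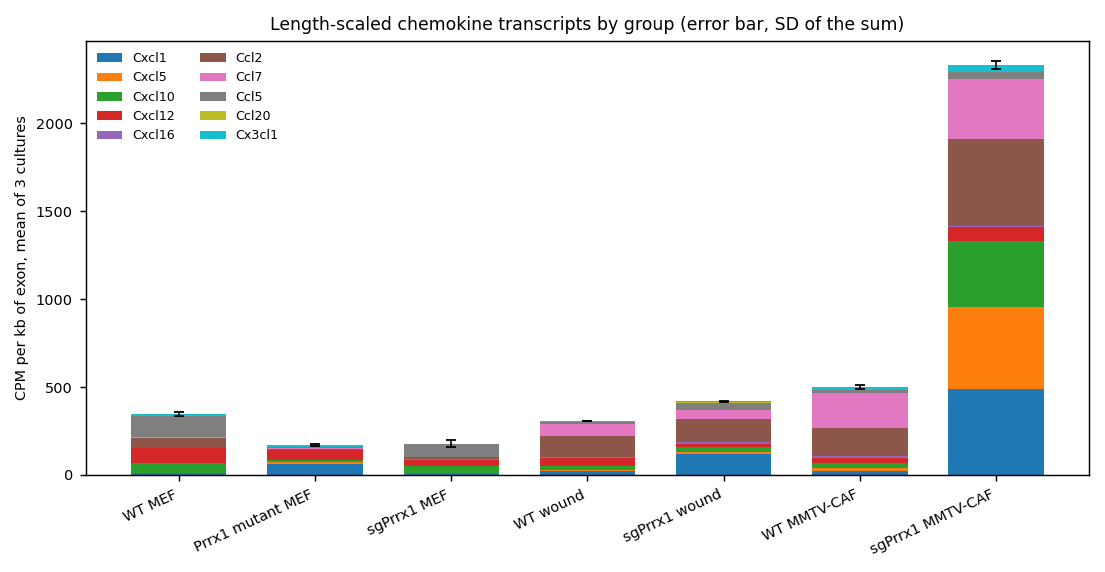
Mean CPM per kb of exon (y axis, linear from 0) of the 10 chemokines stacked by group, with the SD of the sum over 3 cultures as error bar. The bar of sgPrrx1 MMTV-CAF reaches 2331 and that of WT MMTV-CAF 502; Cxcl1, Cxcl5 and Cxcl10 are thin segments in the WT bar and wide ones in the sgPrrx1 bar.

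Genes beside the members were read for levels after the members' values had been seen. Between Cxcl5 and Cxcl1 on chromosome 5 lie Ppbp, Pf4, Cxcl3 and Cxcl15, and Cxcl2 lies next to Cxcl1. In sgPrrx1 MMTV-CAF, Ppbp, a platelet-type chemokine, rose from 2.17 to 9.43 CPM (log2 fold change 2.10, SE 0.11, edgeR adjusted p = 4.28e-07), while Cxcl2, a close relative of Cxcl1, stood at 0 CPM in WT and 0.0386 CPM in sgPrrx1 on average. These relatives have similar sequences and the treatment of reads that map to several genes was not given in the sources used here, so their counts are less certain. Cxcl9 and Cxcl11, on either side of Cxcl10 and also ligands of Cxcr3, did not share one direction with it in sgPrrx1 MMTV-CAF. Cxcl11 rose from 1.31 to 5.38 CPM (2.02, SE 0.31, edgeR adjusted p = 0.000387), and Cxcl9 fell from 0.742 to 0.235 CPM (-1.68, SE 0.23, edgeR adjusted p = 0.000179). Beside Ccl2 and Ccl7 on chromosome 11, Ccl8 rose from 11.1 to 32.6 CPM in the same cells (1.54, SE 0.053, edgeR adjusted p = 4.39e-08), and Ccl11, an attractant of eosinophils, fell from 5.92 to 4.52 CPM (-0.41, SE 0.063, edgeR adjusted p = 0.000438).

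Of 28 other chemokine ligands on a fixed list, 27 were listed and few were expressed. In MMTV-CAF, 15 were tested, of which 9 rose and 5 fell, where 41.2% of all genes rose and 41.9% fell. Cxcl14 averaged 37.4 CPM in WT and had no count in sgPrrx1 MMTV-CAF, so that it fell where most members rose (edgeR adjusted p = 1.65e-09). Pf4 and Cxcl3 rose but stayed under 1 CPM. In wound-healing fibroblasts, 5 of 10 fell and 1 rose (39.3% and 38.3% of all genes). Among those that fell was Ccl9, from 23.4 to 0.725 CPM (log2 fold change -5.01, SE 0.082, edgeR adjusted p = 4.06e-10). With sgPrrx1 in MEF, 2 of 5 fell and 1 rose (22.8% and 20.3% of all genes). In the mutant, 1 of 6 fell and 2 rose (30.5% and 29.4% of all genes). Those called in MEF were under 3 CPM. Between the 2 MEF models, 3 of 5 were lower in sgPrrx1 MEF and 0 higher (0 also at an unadjusted p under 0.05 and by DESeq2). Of all genes, 28.4% were lower and 27.8% higher there. Of 23 chemokine receptors, at most 5 were tested in a comparison. Their counts lower and higher were 1 and 4 in MMTV-CAF, 3 and 1 in wound-healing fibroblasts, 2 and 0 in sgPrrx1 MEF, 2 and 1 in mutant MEF and 1 and 0 between the MEF models. The shares of all genes in each comparison are those given for the ligands. The counts of 0 in edgeR were also 0 at an unadjusted p under 0.05, while DESeq2 called 1 gene, Ackr1, higher in sgPrrx1 MEF in both comparisons. Ackr3, which takes up Cxcl12 and removes it, rose from 17.6 to 417 CPM in sgPrrx1 MMTV-CAF (4.55, SE 0.028, edgeR adjusted p = 1.42e-11), where Cxcl12 rose as well. Cxcr4, the signalling receptor, stayed under 1 CPM in every group.

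Among 11 proteases and binding proteins that process chemokines, 8 of 10 tested rose and 2 fell in MMTV-CAF, where 41.2% of all genes rose and 41.9% fell. In wound-healing fibroblasts 3 of 11 rose and 6 fell (38.3% and 39.3% of all genes), in sgPrrx1 MEF 1 of 8 rose and 3 fell (20.3% and 22.8%), and in mutant MEF 4 of 9 rose and 3 fell (29.4% and 30.5%). Between the MEF models, 1 of 9 was higher and 6 lower in sgPrrx1 MEF (27.8% and 28.4%). In sgPrrx1 MMTV-CAF, Mmp9, a gelatinase that trims chemokines, rose from 0.844 to 8.33 CPM (log2 fold change 3.30, SE 0.14, edgeR adjusted p = 1.74e-07), and Mmp3, a stromelysin, fell from 23.5 to 2.08 CPM (-3.52, SE 0.052, edgeR adjusted p = 5.21e-10). In mutant MEF, Mmp2, another gelatinase, fell from 353 to 87.1 CPM (-2.04, SE 0.095, edgeR adjusted p = 6.72e-06).

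Genes of the NF-kappaB pathway, comprising its subunits and the feedback genes it induces, were counted beside the chemokines. Of 15, 10 rose and 3 fell in MMTV-CAF and 11 rose and 2 fell in wound-healing fibroblasts, with medians of 0.66 and 0.55 on the log2 fold scale. Of all genes, 41.2% rose and 41.9% fell in MMTV-CAF and 38.3% rose and 39.3% fell in wound-healing fibroblasts. In sgPrrx1 MEF 1 of 15 rose and 5 fell (20.3% and 22.8% of all genes), and in mutant MEF 4 rose and 5 fell, near the 29.4% and 30.5% of all genes, with medians of -0.32 and -0.08. Between the MEF models 4 were higher and 5 lower in sgPrrx1 MEF, also near the shares of all genes (27.8% and 28.4%). In wound-healing fibroblasts, Nfkbiz, a nuclear cofactor of NF-kappaB, rose from 18.1 to 91.0 CPM (log2 fold change 2.32, SE 0.028, edgeR adjusted p = 8.90e-11), and Tnfaip3, which dampens the pathway, from 34.2 to 130 CPM (1.92, SE 0.16, edgeR adjusted p = 7.07e-06). In MMTV-CAF, Bcl3, another cofactor, rose from 16.5 to 68.9 CPM (2.04, SE 0.051, edgeR adjusted p = 7.47e-09) and Birc3, a ubiquitin ligase, from 12.02 to 35.8 CPM (1.56, SE 0.035, edgeR adjusted p = 4.40e-09). In MEF, Birc3 went the other way, from 11.7 CPM in WT to 5.18 CPM in sgPrrx1 and 2.18 CPM in the mutant (edgeR adjusted p = 0.00137 and 2.68e-05). Tnfaip3 did not, and was the 1 gene of the list that rose in sgPrrx1 MEF, from 24.1 to 40.7 CPM (edgeR adjusted p = 0.0201).

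Interferon response genes did not move with Cxcl10 in every origin. Of 19, 17 fell and 1 rose in wound-healing fibroblasts (median log2 fold change -0.74, with 39.3% of all genes lower and 38.3% higher), where Cxcl10 and Ccl5 rose. In sgPrrx1 MEF, 17 of 18 fell and 0 rose (0 also at an unadjusted p under 0.05 and by DESeq2, median -1.54, with 22.8% and 20.3% of all genes), where Cxcl10 overlapped with WT. In mutant MEF, 13 fell and 3 rose (median -1.47, with 30.5% and 29.4% of all genes), and Cxcl10 and Ccl5 fell too. In MMTV-CAF, 9 rose and 9 fell (median -0.02), near the shares of all genes. Between the MEF models, 9 of 17 were lower and 7 higher in sgPrrx1 MEF. In MMTV-CAF, Rsad2, an antiviral enzyme, rose from 24.0 to 104 CPM (2.09, SE 0.022, edgeR adjusted p = 1.01e-10). In wound-healing fibroblasts, Ifit3, an antiviral RNA-response gene, fell from 51.01 to 15.1 CPM (-1.76, SE 0.029, edgeR adjusted p = 4.28e-10). In sgPrrx1 MEF, Usp18, which removes the ubiquitin-like protein ISG15, fell from 10.1 to 0.347 CPM (-4.89, SE 0.36, edgeR adjusted p = 0.000112).

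**Figure D4:**
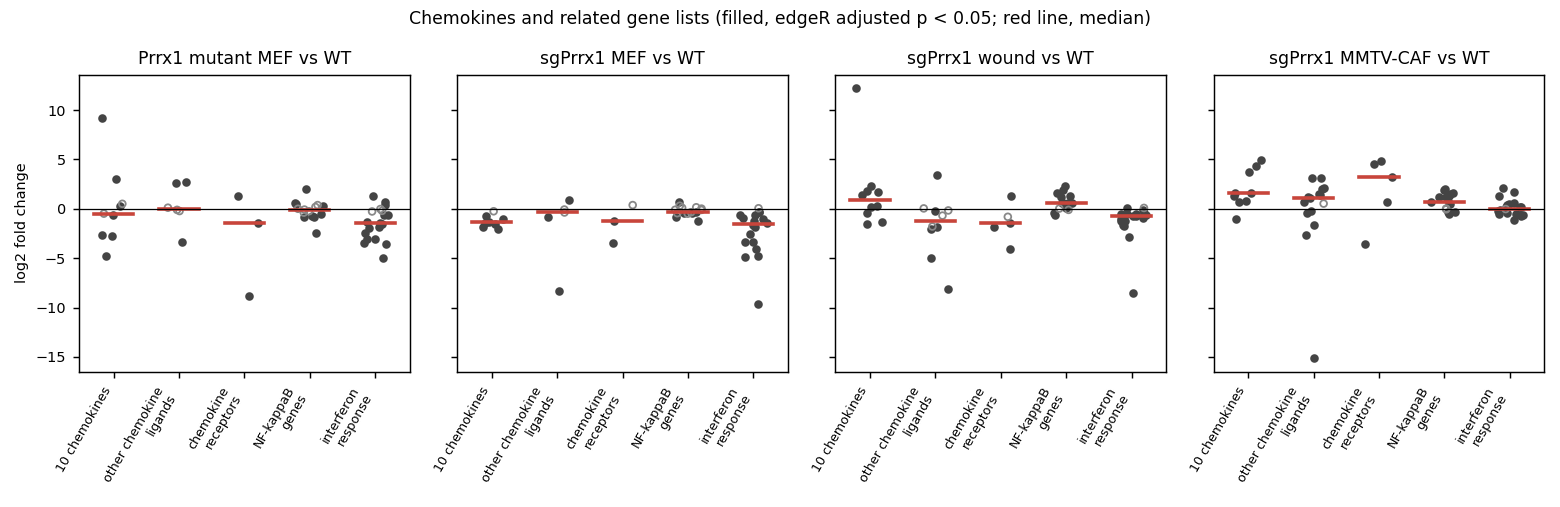
Log2 fold change (y axis) of the tested genes of each list against WT of the same origin; filled points passed an edgeR adjusted p of 0.05, and the red line is the median of the list. The medians of the chemokines and of the NF-kappaB genes lie above 0 in wound-healing fibroblasts and MMTV-CAF and below 0 in sgPrrx1 MEF, and that of the interferon response genes lies below 0 in both MEF groups and in wound-healing fibroblasts.

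The genes whose log2 CPM was most like that of a member over the 21 cultures were ranked among 15093 genes by Pearson's r, as a description; the 21 points share 3 origins and 7 groups. Cxcl5 was the member closest to Cxcl1 (r = 0.925), Ccl7 the closest to Ccl2 (r = 0.891) and Cxcl16 the closest to Ccl7 (r = 0.917). Cxcl12 and Cx3cl1 were each other's nearest member with r = 0.637. Among all genes, Ptn, a heparin-binding growth factor, was the nearest to Cxcl12 (r = 0.949). Oasl1, an interferon-induced gene, was the nearest to Ccl5 (r = 0.972), and Igfbp4, which binds insulin-like growth factors, the nearest to Cxcl10 (r = 0.959).

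Cell type markers also changed, and most fibroblast markers fell in every comparison with WT, whichever way most chemokines went. Of the fibroblast markers, 9 of 11 tested fell and 2 rose in MMTV-CAF (41.9% and 41.2% of all genes). In wound-healing fibroblasts 11 of 12 fell and 1 rose (39.3% and 38.3%). Of 10 tested markers, 9 fell and 1 rose in sgPrrx1 MEF (22.8% and 20.3%) and in mutant MEF (30.5% and 29.4%). Their summed level went from between 41636 and 42567 CPM in WT to between 21332 and 21485 CPM in sgPrrx1 MMTV-CAF, and from between 11778 and 11876 CPM to between 6909 and 6995 CPM in wound-healing fibroblasts. In MEF it ranged from 15972 to 16734 CPM in WT, from 10171 to 12819 CPM in the mutant and from 12301 to 14476 CPM in sgPrrx1. In wound-healing fibroblasts the collagen gene Col1a2 fell from 1873 to 107 CPM (edgeR adjusted p = 3.95e-12). Endothelial markers summed to between 287 and 293 CPM in WT and between 140 and 145 CPM in sgPrrx1 wound-healing fibroblasts, nearly all of it Kdr, and to under 10 CPM elsewhere, with 8 of the 9 under 1 CPM in the wound cultures. Epithelial markers summed to between 52.1 and 54.2 CPM in WT MMTV-CAF, nearly all of it Krt19. The sum was between 0.373 and 0.554 CPM in sgPrrx1 MMTV-CAF, where Krt19 and Grhl2 averaged 0.184 and 0.187 CPM. Krt19 averaged 12.3 CPM in WT MEF, 219 CPM in mutant MEF and 22.7 CPM in sgPrrx1 MEF. In MMTV-CAF, Thy1 fell from 57.3 to 0.641 CPM, and Dcn was one of the 2 fibroblast markers that rose, from 32.4 to 588 CPM (edgeR adjusted p = 7.89e-11 and 1.42e-11). Of 5 leukocyte markers tested there, 4 fell and 1 rose (median log2 fold change -0.81), where 41.9% of all genes fell and 41.2% rose. Csf1r fell from 5.60 to 0.191 CPM and Lyz2 from 0.614 to 0.0815 CPM (edgeR adjusted p = 1.51e-07 and 1.18e-05), while Cd14, the most abundant, rose from 6.69 to 26.1 CPM (edgeR adjusted p = 8.54e-09), so that the summed level rose from between 15.9 and 16.01 CPM to between 27.9 and 28.8 CPM. In the sgPrrx1 MMTV-CAF, 13 of 15 leukocyte markers were under 1 CPM. Their part in the chemokine results was not tested. In such bulk samples, fewer cells of a type and less RNA per cell cannot be told apart.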

How the data were processed

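The authors deposited 3 tables of counts per gene, 1 for each origin. According to the submitters' processing notes, Trimmomatic, STAR and HTSeq were used, with mm10 as the genome; annotation, strand and the treatment of multi-mapping reads are not given in the sources used here, and use of ComBat-seq on the mouse counts is not stated. Wound columns name only genotype and number and were assigned by elimination; 0 columns were left without a sample. Low deposited counts are even more often than odd, so a read pair may have been counted as 2. Counts of replicates differed by more than sampling noise.

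Counts were filtered with filterByExpr, scaled by TMM and given to edgeR's quasi-likelihood functions glmQLFit and glmQLFTest, version 4.0.16 (R 4.3.3), using the 6 cultures of a comparison and Benjamini-Hochberg adjustment; the interaction used 18. The SE is the absolute log2 fold change divided by the square root of F. Scripts were tested on simulated counts. Alternatives were DESeq2 1.42.0, RLE and upper-quartile scaling, other filters, counts divided by 2, a 2-fold limit, a replicate block, all 9 MEF cultures in 1 model and leaving out cultures. Members and lists were chosen with earlier results of these data known. Of other lists, at most the 3 genes with the largest change past the threshold were named per comparison, and genes beside the members were added after their values were seen.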

Additional observations from a re-analysis of the deposited data

Results flagged for a closer look

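The sgPrrx1 change differed between MEF, wound-healing fibroblasts and MMTV-CAF for each of the 10 members, by edgeR's test of the interaction over 18 cultures, which is why they are listed here. The adjusted p was 5.35e-15 for Ccl2, 1.15e-09 for Ccl5, 6.04e-09 for Ccl7, 4.76e-14 for Cxcl1, 8.91e-10 for Cxcl5, 2.85e-13 for Cxcl10, 6.77e-14 for Cxcl12, 1.40e-11 for Cxcl16 and 2.20e-13 for Cx3cl1. For Ccl20 it was 0.000284, and this rests on counts in a single group. As 80.1% of all genes tested also differed, these values do not set the chemokines apart, and origin cannot be told apart from count table, nor for MMTV-CAF from strain.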

How the results depend on the processing

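Of the log2 fold changes of the members and Prrx1 recomputed under an alternative, 701 kept their direction and their side of the threshold, 23 kept their direction but were no longer called, 2 became called and 0 reversed. The replicate numbers did not pair the cultures (correlations of same-numbered cultures from -0.22 to 0.13), and with a replicate block Cx3cl1 in mutant MEF was no longer called (edgeR adjusted p = 0.0640), nor were Ccl2 and Cxcl16 between the MEF models (0.0627 and 0.144), while Cxcl10 in sgPrrx1 MEF was called (0.0460), which made 8 members lower there. The block changed no other member's call, and it moved the genes called in sgPrrx1 MEF from 5764 to 6629. A 2-fold limit cut the genes called from 8155 to 3283 in mutant MEF, from 5764 to 1411 in sgPrrx1 MEF (1200 lower and 211 higher), from 10811 to 2179 in wound-healing fibroblasts, from 11552 to 3377 in MMTV-CAF and from 7513 to 2838 between the MEF models. Members no longer called under this limit were Ccl7 and Cx3cl1 in MMTV-CAF and Ccl2, Ccl7 and Cxcl10 in wound-healing fibroblasts. In MEF they were Ccl5 with sgPrrx1, Cxcl12 and Cx3cl1 in the mutant, and Ccl2 and Cxcl12 between the models. Without the second WT or the second sgPrrx1 culture, the genes called in sgPrrx1 MEF were 3830 and 3834. Requiring 10 counts in every culture left Ccl20 and Cxcl5 out of the interaction, and the other 8 members still differed. Group levels moved by at most 7.74% with library totals alone and 2.45% with RLE scaling. Sequencing depth limits Ccl20 outside sgPrrx1 wound-healing fibroblasts and Cxcl5 in WT and sgPrrx1 MEF, where values rest on a few counts.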
